A study of Mus musculus with 12 samples.

Results

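Axon guidance ligands and receptors were followed in the cerebellum of mice at postnatal day 3 as 44 genes among 7896 genes with a named probe set. They were chosen by symbol as semaphorins, plexins, neuropilins, ephrins, Eph receptors, netrins, netrin receptors, Slits and Robos, with no second gene in the annotation of the probe set. Of 73 protein-coding RefSeq genes whose symbols match that pattern, the other 29 were without named probe sets and are not analysed here. Among these were Dcc, Nrp1, Slit2, Sema6a and Unc50, whose symbol matches although it is not a guidance receptor gene. The 44 genes were measured by 278 probe sets (183 exon regions and 95 exon junctions), and each gene value is the mean log2 signal of its probe sets. For 18 genes there was 1 probe set, and for 17 there were at least 5.

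The study compared whole C57BL/6 cerebella in 4 groups of 3 samples. All animals carried Math1-Cre, a recombinase driven by a regulatory sequence of the granule cell lineage gene Atoh1, so that floxed genes are deleted in that lineage while other cell types keep them. Atr BaxBak mutants combined Math1-Cre with Atr-loxP/loxP, with Bax-loxP/loxP and with Bak--/-, and their BaxBak controls had the same alleles without floxed Atr. Both groups lacked the apoptosis gene Bak in all cells. Atr p53 mutants combined Math1-Cre with Atr-loxP/loxP and with p53-loxP/loxP, and p53 controls had Math1-Cre and p53-loxP/loxP. Atr encodes a kinase that responds to stalled replication. The question was what loss of Atr does to the cerebellar transcriptome where Bax and Bak, or p53, are deleted as well.

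Axon guidance genes encode cues and receptors that steer growth cones and migrating neurons. Semaphorins signal through plexins, with neuropilins as co-receptors for the secreted class. Ephrins and Eph receptors, both bound to the cell surface, signal between touching cells. Netrins act through Dcc and Unc5 receptors, and Slits repel through Robo receptors. In the early postnatal cerebellum, granule cell precursors divide at the surface, extend parallel fibres and migrate inward, and plexins, Unc5 receptors and Eph receptors are known in mice to act on these steps.

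The sequences before a listed transcription start of 5 genes are shown because the results turn on these genes. Efna1 was the single gene called in the p53 background. Ntn4 and Plxnb2 were lower on every named probe set in both backgrounds. Sema7a and Plxnc1 are a known ligand and receptor pair, both below their controls in the BaxBak background. Each run holds the 250 bases before the first listed transcription start, 5′ to 3′ on the gene's strand, from RefSeq (GRCm38.p6). Capitals mark the GC box GGGCGG on either strand and the E-box CANNTG, the kind of site bound by basic helix-loop-helix factors such as Atoh1. No E-box overlapped a GC box in these windows. The windows lie at chr3:89280952-89281201 (minus strand), chr10:93640799-93641048 (plus strand), chr15:89180789-89181038 (minus strand), chr9:57939862-57940111 (plus strand) and chr10:94944846-94945095 (minus strand). Against the bounds of each gene in the same assembly, the windows of Efna1 and Ntn4 lie before the gene, those of Plxnb2 and Sema7a lie inside it, and that of Plxnc1 crosses its end.
Efna1: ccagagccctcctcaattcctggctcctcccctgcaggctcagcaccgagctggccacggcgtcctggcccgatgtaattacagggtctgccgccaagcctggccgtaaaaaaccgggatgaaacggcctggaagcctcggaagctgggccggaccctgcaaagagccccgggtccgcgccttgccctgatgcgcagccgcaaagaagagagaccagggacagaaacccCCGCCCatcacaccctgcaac
Ntn4: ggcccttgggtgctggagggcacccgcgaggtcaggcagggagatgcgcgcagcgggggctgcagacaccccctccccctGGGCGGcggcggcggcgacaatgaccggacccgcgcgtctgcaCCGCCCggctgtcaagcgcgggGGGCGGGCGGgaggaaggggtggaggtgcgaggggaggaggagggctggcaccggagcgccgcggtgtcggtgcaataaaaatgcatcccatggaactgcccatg
Plxnb2: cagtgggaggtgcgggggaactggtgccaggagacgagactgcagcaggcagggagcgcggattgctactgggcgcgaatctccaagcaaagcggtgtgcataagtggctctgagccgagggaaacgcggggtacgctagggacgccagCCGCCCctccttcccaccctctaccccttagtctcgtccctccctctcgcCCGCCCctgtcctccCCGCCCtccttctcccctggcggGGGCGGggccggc
Sema7a: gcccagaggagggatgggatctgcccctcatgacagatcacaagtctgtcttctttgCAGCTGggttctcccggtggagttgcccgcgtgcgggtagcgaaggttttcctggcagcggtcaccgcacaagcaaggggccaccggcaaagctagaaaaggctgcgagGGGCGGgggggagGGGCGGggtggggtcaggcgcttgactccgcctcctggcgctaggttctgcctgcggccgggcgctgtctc
Plxnc1: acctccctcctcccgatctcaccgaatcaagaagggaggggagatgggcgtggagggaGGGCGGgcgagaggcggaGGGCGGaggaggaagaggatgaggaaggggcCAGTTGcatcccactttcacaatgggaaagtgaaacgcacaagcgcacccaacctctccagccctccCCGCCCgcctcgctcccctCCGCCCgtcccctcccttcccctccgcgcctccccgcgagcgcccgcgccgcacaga
Of the 44 genes, 40 had a listed start, and the window before the first listed start lay before the gene for 19, inside it for 14 and across its end for 7. The GC box was found in 27 of these 40 windows, against 32.9% of all 27025 genes with a start. An E-box was found in 20 of the 40, against 66.0% of all genes, and a match to the p53 half-site consensus in 5 of the 40, against 7.18% of all genes. Among the sequences shown, Sema7a and Plxnc1 hold 1 E-box each. These matches describe letters and not binding.

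A probe set carries a gene name only where it is listed in the authors' deposited tables, and those tables hold what passed their test of Atr BaxBak mutants against BaxBak controls. The BaxBak comparison is therefore a description here, with no p-values and nothing read from its counts. The p53 difference took no part in that choice. The spread among the p53 samples may have entered it, if the authors' test fitted all 12 samples together. The p53 comparison was tested on the 6 p53 samples alone, but its p-values may not be independent of the choice of names. All 44 genes were named, and no filter on low values was applied. Values are log2 signals, differences are mutants minus controls, and ± gives the standard error from limma. Signal depends on the probe, so levels are not compared between genes.

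Array medians lay between 6.46 and 6.49. The mean of the 5222 negative control probe sets, which match no mouse transcript, was 4.32 to 4.58 in Atr BaxBak mutants, 3.97 to 4.20 in BaxBak controls, 4.15 to 4.50 in Atr p53 mutants and 4.12 to 4.31 in p53 controls. Sema3c lay under that mean throughout and is given no fold or difference, and 6 further genes (Efna4, Ntn3, Plxna2, Robo1, Robo3 and Slit3) lay under the 95th percentile of the negative controls (7.002). Granule cell precursor markers were lower in the same Atr BaxBak mutants: 10 of 13 named markers of a list of 16 were called lower and 0 higher, where 46.2% and 31.5% of all named genes were, and their summed signal was 119.2 to 120.5 in mutants and 126.6 to 127.5 in controls. Markers of several other cell types stood the other way, but not of all. Postmitotic granule neuron markers had 3 called higher and 3 lower of 6 named (of a list of 13). Microglia markers had 1 and 1 of 4 (of a list of 10), and markers of meninges and fibroblasts 1 and 1 of 2 (of a list of 8). Purkinje cell markers (7 of 7 named higher, of a list of 12) summed to 66.6 to 67.0 in Atr BaxBak mutants and 60.6 to 62.0 in BaxBak controls. Interneuron markers (7 of 8 higher) summed to 74.8 to 76.8 in Atr BaxBak mutants and 69.9 to 70.6 in BaxBak controls. Markers of astrocytes and Bergmann glia (7 of 8 higher, of a list of 12) summed to 77.2 to 77.9 in Atr BaxBak mutants and 70.1 to 71.2 in BaxBak controls. Oligodendrocyte lineage markers (7 of 8 higher, of a list of 10) summed to 68.9 to 71.4 in Atr BaxBak mutants and 63.1 to 65.4 in BaxBak controls. None of these named markers lay under the negative controls in all groups. In whole cerebella, fewer cells of a type and less RNA per cell cannot be told apart, and the part of these shifts in the values below was not tested. One title prefix was carried by all Atr BaxBak mutants and by no other sample, so genotype and what that prefix stands for cannot be told apart. Atr had no named probe set, and its loss is taken from the labels.

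In the BaxBak background 29 of the 44 genes were above their controls and 15 below, with differences from -1.15 (Ntn4) to 1.46 (Slit3) and a median of 0.35. Over all 7896 named genes the median was -0.34. By gene mean and at least 1 probe set passing over the whole array in one direction only, 20 genes were called higher, where 31.5% of all named genes were, and 13 lower, where 46.2% were (33 of 44 and 77.7% in either direction). Sema3c is counted among the 44 and the 13, and without it 12 of 43 were called lower. The 33 calls became 1 with negative control brightness in the fit, 15 without BaxBak control 2, and 19 and 16 without Atr BaxBak mutants 1 and 3. Brightness did not overlap between Atr BaxBak mutants (4.32 to 4.58) and BaxBak controls (3.97 to 4.20), so that fit cannot fully tell it from genotype. The median difference in the brightness fit was 0.38. Of the 278 probe sets 97 passed as higher and 124 as lower, against 2.22% and 3.02% of the whole array. The 278 carry names because they passed this contrast in the authors' test, so the larger share restates that choice. For each of the 44, mutant and control values did not overlap, a property of 39.8% (higher) and 58.7% (lower) of all named genes, and one that the choice of names favours. Of 23 ligands 11 were called higher and 6 lower, and of 21 receptors 9 and 7, and nothing is read from these counts. Of 26 genes with several probe sets, 25 had all of them on the same side of 0, and Plxnb1 had 1 of 13 below 0. Probe sets that did not pass the authors' test carry no name. The choice of names therefore favours this agreement too, here and for single genes below.

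In the p53 background the differences ran from -0.54 to 0.54, with a median of -0.07 against -0.03 over all named genes. Against the single p53 control that shares a label prefix with the Atr p53 mutants, the medians were -0.034 and -0.022. Without regard to sign, the median difference was 0.14 in the p53 background and 0.52 in the BaxBak background, against 0.11 and 0.52 over all named genes. The choice of names favours larger BaxBak differences, so nothing is read from the smaller p53 differences. One gene passed, Efna1, which was lower (adjusted p = 0.0433, limma, Benjamini-Hochberg over 7896 genes), and 0 of 44 were higher. Over all named genes, 0.279% were called lower and 0.519% higher. The other 43 genes had adjusted p-values of 0.0961 or more. At an unadjusted p under 0.05 there were 12 of 44 genes, where 19.8% of named genes stood. By single probe sets 0 of 278 passed over the whole array (limma), as did 0.0% of the array. An unadjusted p under 0.05 was found for 32 of the 278, against 5.36% of the array. Most of the array carries no name, and the share over all named probe sets is not given here. Nothing is therefore read from that contrast. In the authors' deposited table of this comparison 0 of the 278 had a step-up p under 0.05. Values did not overlap between mutants and controls for 12 genes lower (18.0% of named genes) and 8 higher (8.98%).

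**Figure D1:**
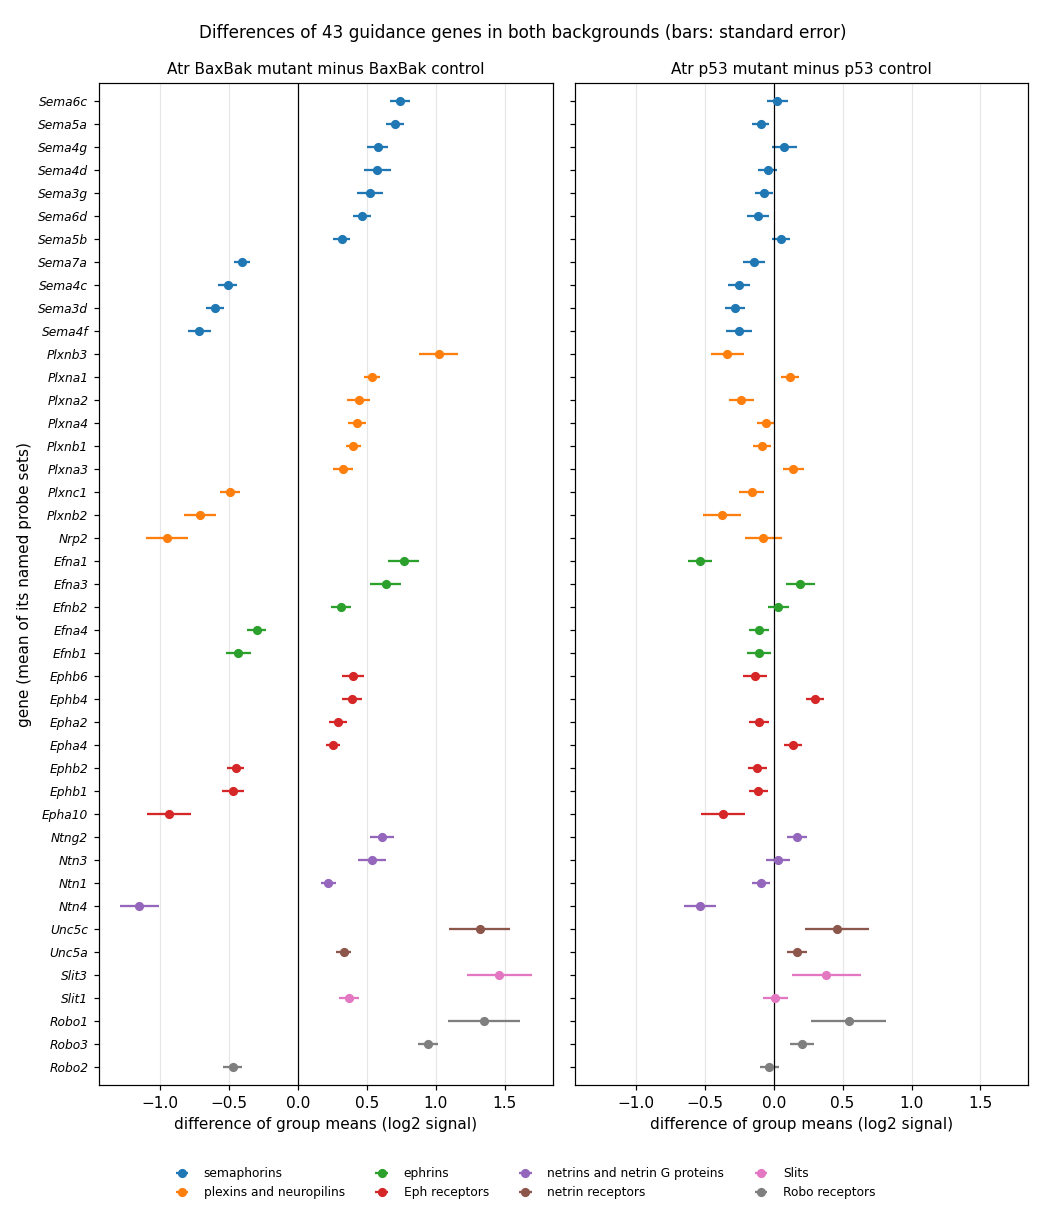
Difference of group means (log2 signal, x axis) for 43 of the 44 genes (rows, grouped by role) in the BaxBak background (left) and the p53 background (right); points are limma estimates and bars their standard errors. Values spread from -1.15 to 1.46 on the left and from -0.54 to 0.54 on the right. Sema3c, under the negative controls, is left out.

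Among the semaphorins, 6 of 12 were called higher and 5 lower, the dim Sema3c included, in the BaxBak background, beside 31.5% and 46.2% of all named genes. Sema6c, a transmembrane semaphorin, stood at 8.16, 8.11 and 8.16 in Atr BaxBak mutants and at 7.51, 7.25 and 7.45 in BaxBak controls, a difference of 0.74 ± 0.08. Its p53 background values stood at 7.78, 7.98 and 7.78 in Atr p53 mutants and at 7.80, 7.80 and 7.85 in p53 controls, where the groups overlapped. Sema5a, a transmembrane semaphorin with thrombospondin repeats, had 9.21, 9.10 and 9.36 in Atr BaxBak mutants and 8.47, 8.60 and 8.48 in BaxBak controls (0.70 ± 0.07). Its values were 9.03, 8.997 and 8.98 in Atr p53 mutants and 9.07, 9.09 and 9.12 in p53 controls (-0.09 ± 0.06), so the BaxBak controls were the low group of the 4. Of its 14 probe sets, all above 0, 1 junction reached 1.64 and 1 exon region 1.45. That junction averaged 7.07 in Atr BaxBak mutants against 5.43 in BaxBak controls, and 7.40 in Atr p53 mutants against 7.36 in p53 controls. Sema4g, known in mice as a ligand of the plexin encoded by Plxnb2, stood at 9.73, 9.68 and 9.71 in Atr BaxBak mutants and at 9.23, 9.07 and 9.09 in BaxBak controls (0.58 ± 0.08). In Atr p53 mutants it had 9.35, 9.60 and 9.32, against 9.29, 9.38 and 9.36 in p53 controls, again with overlap.

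Lower semaphorins were both secreted and membrane bound. Sema4f, a transmembrane form, had 6.79, 6.74 and 6.85 in Atr BaxBak mutants and 7.41, 7.51 and 7.61 in BaxBak controls (-0.72 ± 0.09), and its 5 probe sets ranged from -1.12 to -0.29. The brightest of them gave the smallest difference. With floxed p53, Sema4f stood at 7.16, 6.997 and 7.04 in Atr p53 mutants and at 7.14, 7.45 and 7.37 in p53 controls (-0.25 ± 0.10), with overlap through p53 control 1. Sema3d, a secreted semaphorin, stood at 7.30, 7.18 and 7.28 in Atr BaxBak mutants and at 7.78, 7.93 and 7.85 in BaxBak controls (-0.60 ± 0.07). It stood at 7.04, 6.89 and 7.07 in Atr p53 mutants and at 7.22, 7.31 and 7.31 in p53 controls (-0.28 ± 0.07, adjusted p = 0.141, limma), and the groups did not overlap. All 7 of its probe sets were below 0 in both backgrounds. Sema3c had 2.71, 2.31 and 2.35 in Atr BaxBak mutants against 3.11, 3.17 and 3.24 in BaxBak controls, and 3.14, 3.18 and 2.91 in Atr p53 mutants against 2.81, 2.89 and 2.84 in p53 controls, all under the negative control mean. The 6 other semaphorins stood at 0.52 (Sema3g), 0.57 (Sema4d), 0.46 (Sema6d), 0.32 (Sema5b), -0.41 (Sema7a) and -0.51 (Sema4c) in the BaxBak background and between -0.25 and 0.05 in the p53 background.

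Plexins and neuropilins divided by gene. Plxnb3, a B-type plexin gene known in rodents from oligodendrocytes, was the plexin with the largest difference, at 8.01, 7.81 and 8.31 in Atr BaxBak mutants and at 6.91, 6.94 and 7.21 in BaxBak controls (1.02 ± 0.14). All 13 probe sets were above 0, from 0.69 to 1.37. With floxed p53 it stood at 6.60, 6.52 and 6.47 in Atr p53 mutants and at 6.58, 6.996 and 7.02 in p53 controls (-0.34 ± 0.12, adjusted p = 0.194, limma), and 12 of 13 probe sets were below 0. The means of both p53 groups, 6.53 and 6.87, lay under the 95th percentile of the negative controls (7.002). Oligodendrocyte lineage markers had medians of 0.76 in the BaxBak background and -0.14 in the p53 background, and their part in the Plxnb3 values was not tested. Plxna1, a receptor for transmembrane semaphorins and, with neuropilins, for secreted ones, stood at 9.68, 9.66 and 9.67 in Atr BaxBak mutants and at 9.22, 9.17 and 9.002 in BaxBak controls (0.54 ± 0.06). It was also above its controls in the p53 background, at 9.37, 9.43 and 9.35 in Atr p53 mutants and at 9.25, 9.25 and 9.31 in p53 controls (0.12 ± 0.06), without overlap and with 22 of 23 probe sets above 0. Plxna2, the gene of a receptor that guides granule cell migration in mice, rested on 1 dim probe set, at 5.21, 5.12 and 5.15 in Atr BaxBak mutants and at 4.71, 4.61 and 4.84 in BaxBak controls (0.44 ± 0.08). It stood at 4.95, 4.74 and 4.80 in Atr p53 mutants and at 5.21, 4.96 and 5.04 in p53 controls (-0.23 ± 0.09).

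On the lower side, Plxnb2, known in mice to act in granule cell precursor proliferation and migration, stood at 10.25, 10.29 and 10.16 in Atr BaxBak mutants and at 10.90, 11.04 and 10.90 in BaxBak controls (-0.71 ± 0.12). All 29 probe sets were below 0 in that background, from -1.10 to -0.54. With floxed p53 it stood at 10.78, 10.20 and 10.62 in Atr p53 mutants and at 10.83, 10.96 and 10.93 in p53 controls (-0.37 ± 0.14, adjusted p = 0.205, limma), with all 29 below 0 again, from -0.48 to -0.27. Atr p53 mutant 2 was the lowest of its group and lay near the Atr BaxBak mutants. Plxnc1, the receptor gene for the semaphorin of Sema7a, stood at 9.36, 9.33 and 9.32 in Atr BaxBak mutants and at 9.79, 9.87 and 9.83 in BaxBak controls (-0.49 ± 0.07), and all 32 probe sets were below 0. It stood at 9.72, 9.45 and 9.74 in Atr p53 mutants and at 9.81, 9.81 and 9.78 in p53 controls (-0.16 ± 0.09), and all 32 were below 0 there too, with Atr p53 mutant 2 again the lowest. Nrp2, a co-receptor for secreted semaphorins, stood at 7.52, 7.24 and 7.36 in Atr BaxBak mutants and at 8.52, 8.44 and 8.01 in BaxBak controls (-0.95 ± 0.15). Its groups overlapped in the p53 background, at 8.38, 7.94 and 8.09 in Atr p53 mutants and at 8.40, 8.23 and 8.01 in p53 controls (-0.08 ± 0.14). Plxna3, Plxna4 and Plxnb1 had BaxBak differences of 0.33, 0.43 and 0.40 and p53 differences of 0.14, -0.06 and -0.09.

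Granule cell precursor markers had a median of -0.64 in the BaxBak background and -0.26 in the p53 background, where 0 of 13 passed (limma), against 0.798% of all named genes, and 6 had an unadjusted p under 0.05, against 19.8%. The part of these shifts in the Plxnb2 and Plxnc1 values was not tested. The summed signal of these markers ran from 119.8 to 123.9 in Atr p53 mutants, against 124.3 to 126.6 in p53 controls.

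**Figure D2:**
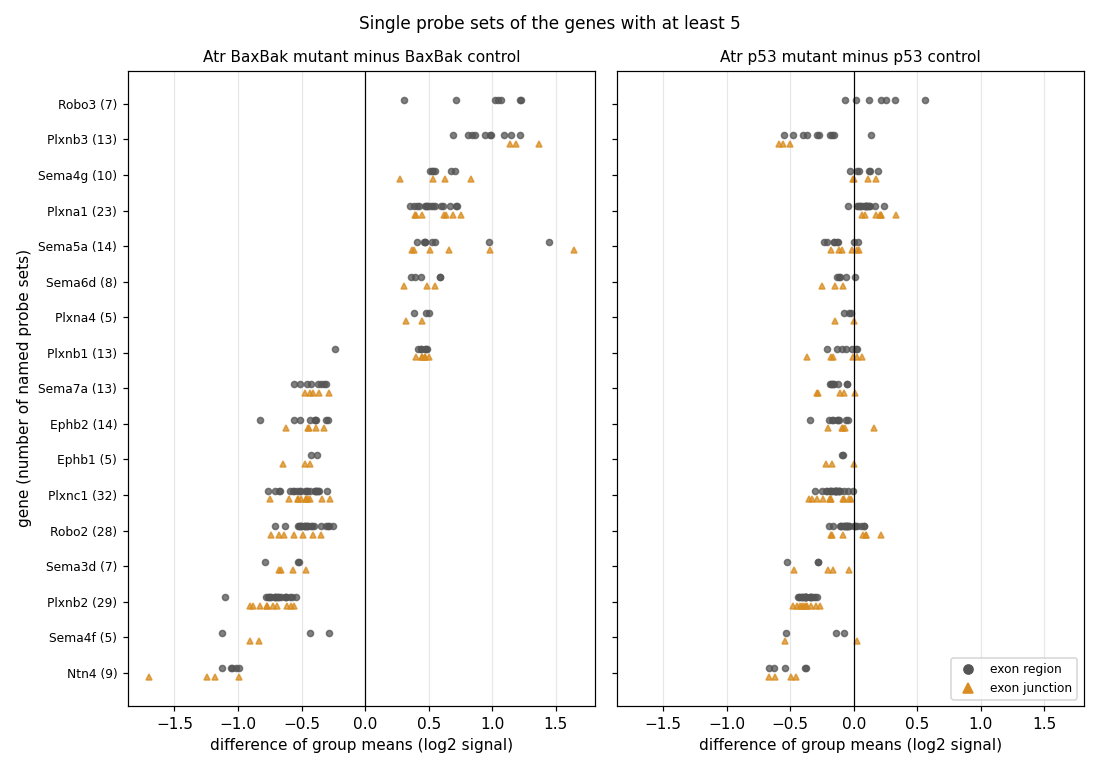
Difference of group means (log2 signal, x axis) of every single probe set of the 17 genes with at least 5 (rows), in the BaxBak background (left) and the p53 background (right); circles are exon regions and triangles exon junctions. All 29 probe sets of Plxnb2, 32 of Plxnc1, 9 of Ntn4 and 7 of Sema3d lie below 0 in both panels. The 13 of Plxnb3 lie above 0 on the left, and 12 of them lie below 0 on the right.

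Known ligand and receptor pairs could be read side by side. Sema7a and Plxnc1 stood at -0.41 ± 0.06 and -0.49 ± 0.07 in the BaxBak background and at -0.14 and -0.16 in the p53 background. Sema4c and Plxnb2 stood at -0.51 ± 0.07 and -0.71 ± 0.12, and at -0.25 and -0.37, while Sema4g, another ligand of the same receptor, stood at 0.58 and 0.08. Sema4d and Plxnb1 stood at 0.57 ± 0.10 and 0.40 ± 0.05 in the BaxBak background and at -0.05 and -0.09 in the p53 background. Sema6d and its receptor Plxna1 stood at 0.46 and 0.54 in the BaxBak background and at -0.11 and 0.12 in the p53 background. Slit3 and Slit1 stood at 1.46 and 0.37, and their receptor gene Robo2 at -0.47, in the BaxBak background, and at 0.38, 0.01 and -0.03 in the p53 background. Robo1, another Slit receptor gene, stood at 1.35 in the BaxBak background and at 0.54 in the p53 background. Slit3 and Robo1 each rested on 1 dim probe set. In the ephrin family, Efnb1 and Ephb2 were both below their BaxBak controls (-0.43 ± 0.09 and -0.45 ± 0.06), and Efnb2 and Ephb4, a pair known from arteries and veins, were both above (0.31 ± 0.07 and 0.39 ± 0.07). Of 11 listed vessel markers 3 were named, 2 of them called higher and 0 lower, where 31.5% and 46.2% of all named genes were. These 3 had a median difference of 0.77. They summed to 24.5 to 24.9 in Atr BaxBak mutants and 22.3 to 22.8 in BaxBak controls. Their part in the Efnb2 and Ephb4 values was not tested.

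Ephrins gave the one call in the p53 background. Efna1, a lipid-anchored ligand of EphA receptors, stood at 8.87, 8.89 and 8.72 in Atr p53 mutants and at 9.24, 9.36 and 9.49 in p53 controls, with no overlap. It fell by 0.54 ± 0.09 on the log2 scale, or 1.45-fold (adjusted p = 0.0433, limma). In the BaxBak background it stood at 8.95, 9.38 and 9.37 in Atr BaxBak mutants and at 8.40, 8.41 and 8.59 in BaxBak controls, above its controls by 0.77 ± 0.11, so the BaxBak controls were lowest and the p53 controls and Atr BaxBak mutants highest. The gene rests on 1 exon junction. Against the single p53 control that shares a label prefix with the Atr p53 mutants, the difference was -0.41 and the call was lost, and a fit with the prefix as a block rests on that same control and gives the same value. The call was also lost with exon junctions alone (same difference, fewer genes tested) and with quantile normalization (-0.50). It was lost when Atr p53 mutant 1, 2 or 3 or p53 control 2 or 3 was left out. With negative control brightness in a fit of all 12 samples, the Efna1 call was lost too (-0.53). The authors' deposited table gives its probe set a step-up p of 0.643. It was also called with a trend on mean signal and with all 12 samples in the fit.

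Efna3, another lipid-anchored ephrin gene, stood at 8.65, 8.77 and 8.74 in Atr BaxBak mutants and at 8.22, 8.18 and 7.85 in BaxBak controls (0.63 ± 0.11), and at 8.29, 8.66 and 8.48 in Atr p53 mutants and at 8.36, 8.32 and 8.18 in p53 controls in the other background, where values overlapped. Its 3 probe sets lay above 0 in both. Efnb2, a transmembrane ephrin gene, stood at 8.68, 8.59 and 8.72 in Atr BaxBak mutants and at 8.28, 8.45 and 8.32 in BaxBak controls (0.31 ± 0.07), with a p53 difference of 0.03. Efnb1, also transmembrane, stood at 8.15, 8.41 and 8.26 in Atr BaxBak mutants and at 8.80, 8.75 and 8.58 in BaxBak controls (-0.43 ± 0.09), with -0.11 in the p53 background. Efna4 was dim, at 6.33, 6.23 and 6.29 in Atr BaxBak mutants and at 6.52, 6.72 and 6.51 in BaxBak controls (-0.30 ± 0.07). None of these 4 genes passed in the p53 background.

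**Figure D3:**
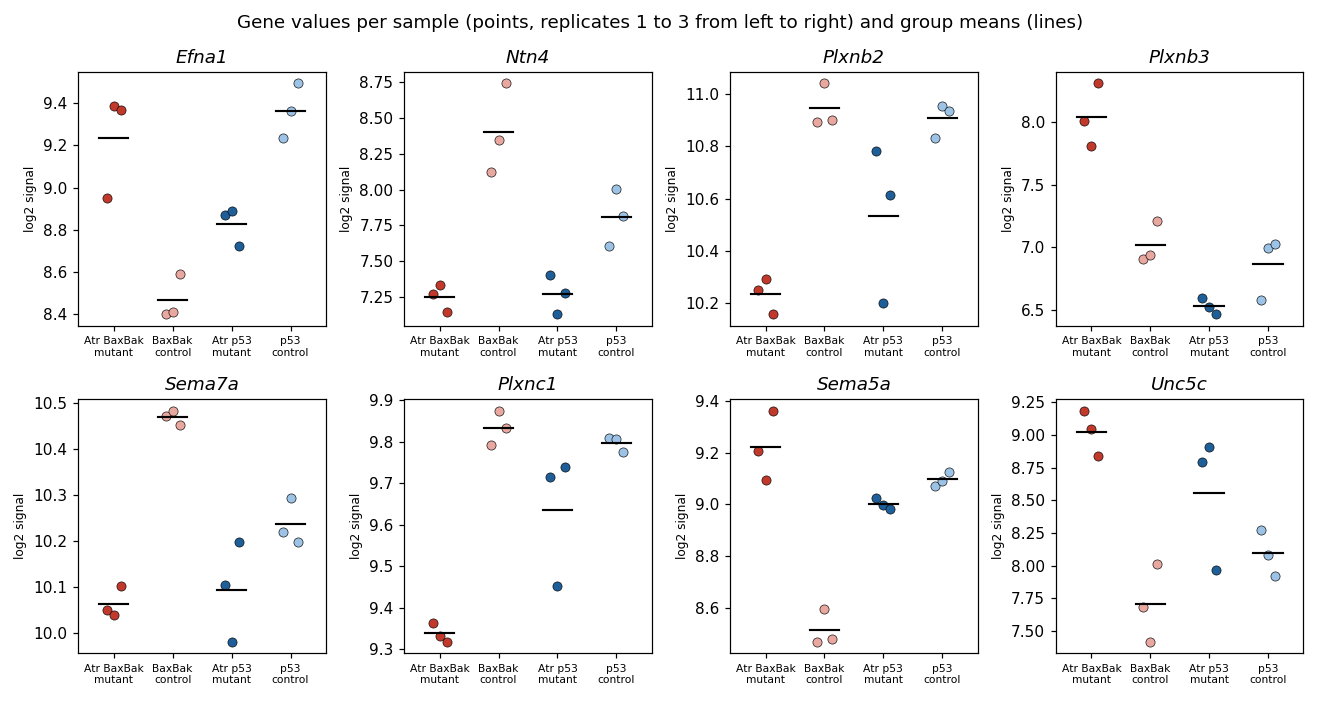
Log2 signal (y axis) of 8 genes in each of the 12 samples, with Atr BaxBak mutants, BaxBak controls, Atr p53 mutants and p53 controls from left to right; points are samples and lines group means. Efna1 and Sema5a have their lowest group in BaxBak controls, Ntn4 its highest there, and Unc5c varies most among Atr p53 mutants.

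Eph receptors had 1 gene called higher and 3 lower of 7 in the BaxBak background, beside 31.5% and 46.2% of all named genes. Ephb2, a receptor tyrosine kinase for ephrin-B ligands, stood at 9.20, 9.37 and 9.25 in Atr BaxBak mutants and at 9.72, 9.80 and 9.66 in BaxBak controls (-0.45 ± 0.06), and 14 of 14 probe sets were below 0. It stood at 9.85, 9.74 and 9.86 in Atr p53 mutants and at 9.94, 9.92 and 9.95 in p53 controls (-0.12 ± 0.07), close to its controls but without overlap. Ephb1, a close relative, stood at 8.71, 8.96 and 8.92 in Atr BaxBak mutants and at 9.22, 9.39 and 9.39 in BaxBak controls (-0.47 ± 0.08) and at 9.31, 9.14 and 9.24 in Atr p53 mutants and at 9.37, 9.31 and 9.36 in p53 controls. Epha10, whose protein has no kinase activity, rested on 1 junction, at 7.84, 7.88 and 7.58 in Atr BaxBak mutants and at 8.71, 8.48 and 8.92 in BaxBak controls (-0.94 ± 0.16). Its p53 background values stood at 8.23, 7.93 and 8.25 in Atr p53 mutants and at 8.15, 8.74 and 8.63 in p53 controls (-0.37 ± 0.16), with p53 control 1 inside the mutant range.

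Ephb4 was above its controls in both backgrounds without overlap, at 9.66, 9.75 and 9.92 in Atr BaxBak mutants and at 9.38, 9.30 and 9.48 in BaxBak controls (0.39 ± 0.07), and at 9.93, 9.94 and 9.81 in Atr p53 mutants and at 9.63, 9.59 and 9.56 in p53 controls (0.30 ± 0.07, adjusted p = 0.109, limma). Ephb6, whose protein also lacks kinase activity, stood at 7.33, 7.29 and 7.48 in Atr BaxBak mutants and at 7.07, 6.95 and 6.89 in BaxBak controls (0.40 ± 0.08), and at -0.14 in the p53 background. Epha2 stood at 7.70, 7.79 and 7.77 in Atr BaxBak mutants and at 7.52, 7.51 and 7.36 in BaxBak controls (0.29 ± 0.06), with -0.10 in the p53 background, and Epha4, a receptor for ephrins of both classes, differed by 0.25 and 0.14. Each of these 4 genes rested on 1 probe set.

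The netrin family held the gene with the lowest BaxBak difference. Ntn4, which encodes a laminin-related netrin of basement membranes, stood at 7.27, 7.33 and 7.15 in Atr BaxBak mutants and at 8.12, 8.35 and 8.74 in BaxBak controls (-1.15 ± 0.14, 2.22-fold lower in mutants), with all 9 probe sets from -1.70 to -0.99. It stood at 7.41, 7.13 and 7.28 in Atr p53 mutants and at 7.61, 8.003 and 7.82 in p53 controls (-0.54 ± 0.12, adjusted p = 0.0961, limma), and all 9 probe sets were below 0, from -0.67 to -0.38. The lowest BaxBak control was above every other sample, and the p53 controls lay between BaxBak controls and mutants. Against the p53 control of the same label prefix the difference was -0.33. Ntng2, a lipid-anchored netrin G gene, stood at 7.94, 8.08 and 8.01 in Atr BaxBak mutants and at 7.60, 7.38 and 7.23 in BaxBak controls (0.61 ± 0.09) and, also without overlap, at 7.91, 7.95 and 7.97 in Atr p53 mutants and at 7.69, 7.74 and 7.89 in p53 controls (0.17 ± 0.07). Ntn3 stood at 6.67, 6.56 and 6.82 in Atr BaxBak mutants and at 6.05, 6.03 and 6.36 in BaxBak controls (0.54 ± 0.10) on 1 dim probe set, with 0.03 in the p53 background. Ntn1, the netrin gene best known for guidance of commissural axons, differed little: it stood at 9.06, 9.13 and 9.16 in Atr BaxBak mutants and at 8.85, 8.91 and 8.93 in BaxBak controls (0.22 ± 0.05) and at 9.02, 9.03 and 9.03 in Atr p53 mutants and at 9.14, 9.05 and 9.19 in p53 controls (-0.09 ± 0.07).

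Unc5c, a netrin receptor gene whose loss in mice disturbs the rostral border of the cerebellum, stood at 9.19, 9.04 and 8.84 in Atr BaxBak mutants and at 7.69, 7.42 and 8.01 in BaxBak controls (1.32 ± 0.22). In the p53 background it stood at 8.79, 8.91 and 7.97 in Atr p53 mutants and at 8.28, 8.09 and 7.92 in p53 controls (0.46 ± 0.23, adjusted p = 0.304, limma), with Atr p53 mutant 3 among the controls. Its 3 exon regions disagreed. The brightest averaged 10.51 in Atr BaxBak mutants against 10.26 in BaxBak controls (0.25), and 10.44 in Atr p53 mutants against 10.50 in p53 controls (-0.07). The other two differed by 1.89 and 1.82 in the BaxBak background and by 0.75 and 0.70 in the p53 background. Unc5a, of the same receptor family, stood at 7.47, 7.54 and 7.50 in Atr BaxBak mutants and at 7.16, 7.19 and 7.16 in BaxBak controls (0.33 ± 0.06) and, without overlap, at 7.64, 7.67 and 7.60 in Atr p53 mutants and at 7.58, 7.42 and 7.40 in p53 controls (0.17 ± 0.07).

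Slits and Robos included the highest BaxBak differences, on dim single probe sets. Slit3, a secreted repellent, stood at 6.76, 6.33 and 6.12 in Atr BaxBak mutants and at 4.94, 4.81 and 5.08 in BaxBak controls (1.46 ± 0.24) and at 5.60, 5.98 and 4.89 in Atr p53 mutants and at 5.12, 4.90 and 5.29 in p53 controls (0.38 ± 0.25). Robo1, one of its receptors, stood at 6.53, 6.59 and 6.24 in Atr BaxBak mutants and at 5.35, 4.70 and 5.24 in BaxBak controls (1.35 ± 0.26) and at 5.61, 6.07 and 4.81 in Atr p53 mutants and at 5.03, 4.94 and 4.89 in p53 controls (0.54 ± 0.27). In Atr p53 mutants both genes and Unc5c had their highest value in sample 2 and their lowest in sample 3, as did the negative controls at 4.23, 4.50 and 4.15 in samples 1 to 3. With negative control brightness in the fit, the BaxBak differences were 0.84 for Slit3, 0.69 for Robo1 and 0.89 for Unc5c. Without Atr p53 mutant 3 the p53 differences of Robo1 and Unc5c were 0.89 and 0.76, and both passed. The share of all named genes that passed in that setting is not given here. With negative control brightness in a fit of all 12 samples, the p53 difference of Robo1 was 0.41 and did not pass.

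Robo3, a divergent Robo gene of commissural neurons, stood at 5.78, 5.81 and 5.71 in Atr BaxBak mutants and at 4.82, 4.78 and 4.89 in BaxBak controls (0.94 ± 0.07), with 7 of 7 probe sets above 0. The brightest of the 7 differed by 0.31, against a median of 1.04. With floxed p53 it stood at 5.06, 5.10 and 5.29 in Atr p53 mutants and at 5.02, 4.85 and 4.97 in p53 controls (0.20 ± 0.09), and with negative control brightness in the fit its BaxBak difference was 0.98. Robo2, a Slit receptor, went the other way, at 9.62, 9.67 and 9.52 in Atr BaxBak mutants and at 10.03, 10.19 and 10.01 in BaxBak controls (-0.47 ± 0.07), with 28 of 28 probe sets below 0. In the p53 background its groups overlapped, at 10.24, 10.18 and 10.27 in Atr p53 mutants and at 10.33, 10.25 and 10.20 in p53 controls (-0.03 ± 0.07). Slit1 stood at 8.09, 7.99 and 7.99 in Atr BaxBak mutants and at 7.63, 7.68 and 7.65 in BaxBak controls (0.37 ± 0.07), with 0.01 in the p53 background.

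The groups compared in the 2 backgrounds share no sample. Across the 44 genes the differences in both backgrounds had a Pearson correlation of 0.57 and a Spearman correlation of 0.49, against 0.46 and 0.43 across all named genes. These are across genes, which share arrays and are not replicates. Of 15 genes below their BaxBak controls, 14 were also below their p53 controls, and the other was the dim Sema3c. Of 29 genes above their BaxBak controls, 17 were also above their p53 controls. Over all named genes the same held for 3438 of 4685 below and for 2015 of 3211 above. The same sign in both held for 70.5% of the 44 genes and for 69.1% of all named genes.

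**Figure D4:**
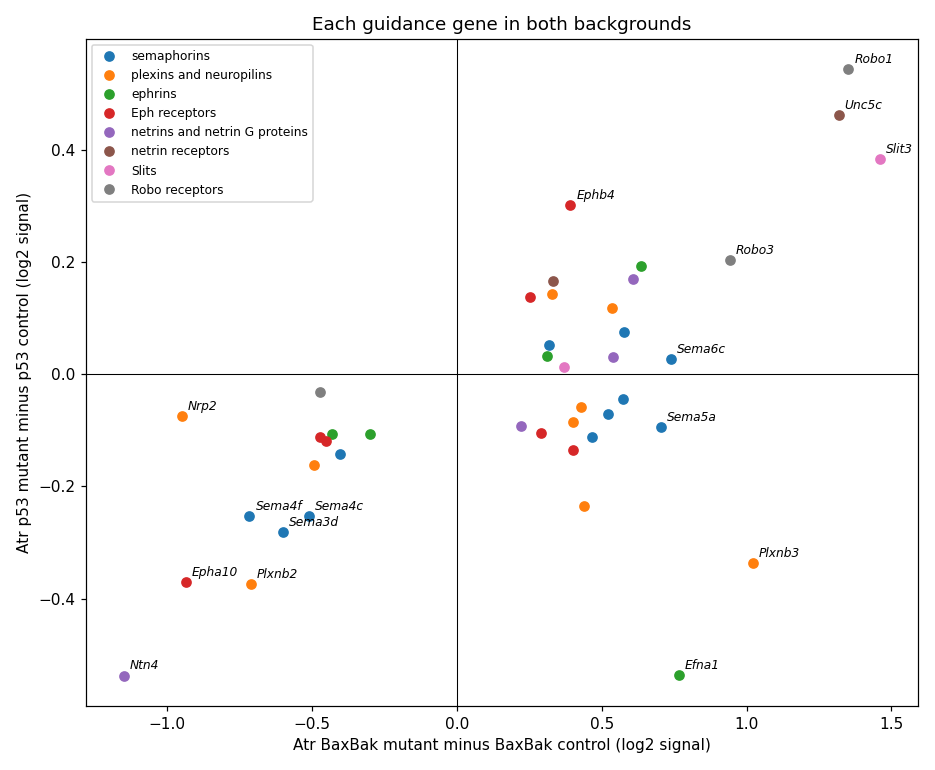
Each of 43 genes (Sema3c, under the negative controls, is left out) by its difference in the BaxBak background (x axis, log2 signal) and in the p53 background (y axis, log2 signal), coloured by role. Genes at the lower left, such as Ntn4 (-1.15 and -0.54) and Plxnb2 (-0.71 and -0.37), are below their controls in both, and Efna1 (0.77 and -0.54) and Plxnb3 (1.02 and -0.34) lie at the lower right. Both p53 group means of Plxnb3 lay under the 95th percentile of the negative controls.

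The control groups of both backgrounds were also set side by side. Between p53 controls and BaxBak controls the median difference was 0.13, against -0.02 over all named genes, and 13 of 44 genes were called higher (7.54% of named genes) and 4 lower (9.64%). The BaxBak controls also enter the choice of names, and nothing is read from these counts. The highest were Efna1 at 0.90, Sema5a at 0.58 and Sema3g at 0.42, and the lowest Ntn4 at -0.59 and Sema3d at -0.57. For Sema5a, p53 controls averaged 9.10 and BaxBak controls 8.52, and for Sema3d p53 controls averaged 7.28 and BaxBak controls 7.86.

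Other guidance genes, from a list of 63 with signalling proteins and further cues, had 40 named members. In the BaxBak background 22 were called higher and 8 lower, with 1 (Limk2) having probe sets both ways, beside 31.5% and 46.2% of all named genes. The median was 0.35, against -0.34 over all named genes, and nothing is read from these counts. The highest were Dock1 at 1.25 and Srgap2 at 0.92, genes of regulators of small GTPases, and Chn2, the gene of a Rac inhibitor, at 0.80. Dock1 and Chn2 were dim, and averaged 4.11 and 4.08 in BaxBak controls, where the negative controls averaged 4.11. Chn2 also lay under the negative controls in p53 controls (4.15 against 4.23). The lowest were Dpysl3 at -0.67 and Dpysl2 at -0.66, genes of the collapsin response mediators that act below semaphorin receptors, and Rnd3 at -0.66. In the p53 background 0 of 40 passed (limma), against 0.798% of all named genes, and 10 had an unadjusted p under 0.05, against 19.8%. There Dpysl3, Dpysl2 and Rnd3 stood at -0.31, -0.27 and -0.28, against -0.13 for Dock1, 0.02 for Srgap2 and 0.34 for Chn2.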

How the data were processed

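RNA came from cerebella freed of meninges, per the labels' protocols, and labelled sense-strand cDNA was hybridised to Affymetrix exon and junction arrays. The authors deposited log2 signals per probe set. The submitters' processing notes name Partek without role or version. How background was corrected and signals normalized, and on which genome build, is not given in the sources used here. The authors' deposited tables also give p-values, step-up p-values and a signed fold score for 34305 probe sets, which supplied the gene symbols. Of 31628 named probe sets, 30892 with 1 symbol in the annotation, which is cut at 87 characters, were used.

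Gene values are means of named probe sets. Linear models with 1 mean per group were fitted in R 4.3.3 with limma 3.58.1 (moderated two-sided tests), over all genes and over 719071 probe sets, with Benjamini-Hochberg adjustment at 0.05. The p53 comparison used 6 samples (4 residual degrees of freedom) and the BaxBak description all 12 (8). The fit was tested on simulated data. No label gives separate litters or animals, so a p-value covers only the spread among these samples, which may be technical, and their number limits the precision. The members, lists and tests were chosen with earlier results of these data known. Per-sample values are given for genes called in the p53 comparison, for up to 3 highest and 3 lowest BaxBak differences in each family, and for the 3 highest and 3 lowest p53 differences. Alternatives covered the gene value, the kind of probe set, a filter on dim probe sets, normalization, the samples and spread of the fit, the negative control signal, the label prefix and each sample left out.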

Additional observations from a re-analysis of the deposited data

Results flagged for a closer look

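For 11 genes every Atr BaxBak mutant lay on one side of the mean of its controls and every Atr p53 mutant on the other side of the mean of its own. The difference between backgrounds was not tested, because the names come from the BaxBak comparison. The BaxBak difference minus the p53 difference was 1.36 for Plxnb3 and 1.30 for Efna1. Both p53 group means of Plxnb3 lay under the 95th percentile of the negative controls. Among semaphorins it was 0.80 for Sema5a, 0.62 for Sema4d and 0.59 for Sema3g. Among other plexins it was 0.67 for Plxna2, 0.49 for Plxnb1 and 0.48 for Plxna4. It was 0.54 for Ephb6, 0.39 for Epha2 and 0.31 for Ntn1. In all 11 the difference was above 0 in the BaxBak background and below 0 in the p53 background. Sema3c, under the negative controls, is left out. Against the p53 control that shares their label prefix, the Atr p53 mutants differed by -0.05 for Plxnb3 and by 0.02 for Sema4d.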

How the results depend on the processing

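No called gene changed sign under any alternative run. For single genes, the values under other fits, normalizations, the dim probe set filter and the label prefix were chosen after seeing the data. The 1 gene called in the p53 background became 2 with all 12 samples in the fit (Efna1 and Sema3d), and 0 with exon regions alone, where Efna1 has no probe set, with junctions alone, quantile normalization, the negative control covariate, label prefix 1843 alone and label prefix as a block, which rests on the same control. The covariate fit used all 12 samples. Leaving out 1 sample gave 0 to 2. The count was 2 without Atr p53 mutant 3 (Robo1 and Unc5c). The 33 genes called in the BaxBak background became 16 with junctions alone, where 28 genes had a value, and 1 (Sema5a) with the negative control covariate. That covariate did not overlap between Atr BaxBak mutants and BaxBak controls, so its fit cannot fully tell it from genotype. The 33 calls became 15 to 24 when 1 sample was left out, the lowest without BaxBak control 2. Leaving out Atr BaxBak mutant 1 gave 19 and mutant 3 gave 16. The median BaxBak difference of 0.35 was 0.31 with the brightest probe set or junctions alone, and 0.38 with the covariate or quantile normalization. The median p53 difference of -0.07 was -0.034 in both label prefix settings and -0.053 with quantile normalization. Between p53 controls and BaxBak controls the median of 0.13 was 0.075 with the brightest probe set, 0.090 with exon regions alone and 0.099 with junctions alone, and 0.094 to 0.14 with 1 sample left out. No paired analysis was possible because the labels give no replicate number shared between groups. Signal near the negative controls limits what Sema3c, Robo1, Slit3, Plxna2, Dock1, Chn2 and the dim probe sets of Robo3 can show. The cause of these shifts was not tested.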
